A study of Mus musculus with 2 samples.

Results

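Collagens are the 44 mouse genes whose symbols have the form Col, a number, a and a number, and that carry at least 1 named non-control probe on the array, out of 21367 named genes. Of these 44 genes, 39 were well above background on at least 1 array by the scanner's own call, 36 of them on both, and differences are given for those 39. Members just inside that limit were Col12a1, with processed signals of 14.8 on the wild-type-labelled and 18.2 on the knockout-labelled array, and Col13a1, at 21.8 and 13.0. Just outside lay Col6a4, at 8.70 and 10.4, and Col6a5, at 10.1 and 3.07.

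Total RNA from mouse retina at postnatal day 12 was hybridised to 1-colour Agilent arrays, with 1 array for tissue labelled wild type and 1 for tissue labelled Samd7 KO. The labels name no strain, sex or number of animals, and do not say which part of Samd7, the gene of a sterile alpha motif protein of photoreceptors, was deleted. Both arrays lay on 1 slide. With 1 array per group no spread between animals exists, and every difference below compares these 2 arrays only. The Samd7 probe goes against its label: with a log2 signal of 4.68 under the wild-type label and 6.47 under the knockout label it differed by 1.78, and where the probe lies relative to the deleted part is not known here. All directions therefore rest on the labels. All 13 rod photoreceptor markers and all 12 Müller glia markers listed were well above background on both arrays. So were 15247 of the 21367 named genes, 14 of 16 lens markers and 13 of 14 pigment epithelium and choroid markers. This call therefore does not tell retina from neighbouring tissue.

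Collagen chains wind into triple helices, of identical or different chains, and are secreted, except for a few that stay in the cell membrane. Fibrillar collagens form the fibres of sclera, cornea and vitreous, collagen IV forms the mesh of basement membranes such as the inner limiting membrane, the vessel wall, Bruch's membrane and the lens capsule, and fibril-associated collagens decorate fibres. Within the retina, collagens are known mainly from vessels, glia and the surfaces that face vitreous and choroid.

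As a family the collagens had a median difference between the arrays near 0, and a single gene, Col6a6, stood far apart. Each signal is given as the log2 of the processed signal less the 75th percentile of its array, and a difference is the knockout-labelled minus the wild-type-labelled value. Among the 36 collagens measured on both arrays, differences ran from -0.67 for Col5a3 to 0.40 for Col16a1, with a median of -0.06, against a median of -0.02 over all 15247 named genes measured on both. Regardless of sign, the median size of the difference was 0.17 for the 36 collagens and 0.085 for all such genes. Within 0.25 of 0 lay 24 of the 36 collagens and 12814 of the 15247 genes. The part of signal level in this was not tested. Lower values were measured for 24 of the 36 (66.7%), and for 58.1% of all such genes. None of the 39 collagens was at least 2-fold higher, against 1.58% of all genes above background, and 1 of 39 (2.56%), Col6a6, was at least 2-fold lower, against 1.37%. Of the 36 measured on both arrays 0 passed 2-fold, against 1.05% higher and 0.617% lower of all such genes. These shares rest on so few genes that they describe single members and not the family. In a tissue extract, fewer cells that make a collagen and less of its RNA per cell cannot be told apart.

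**Figure D1:**
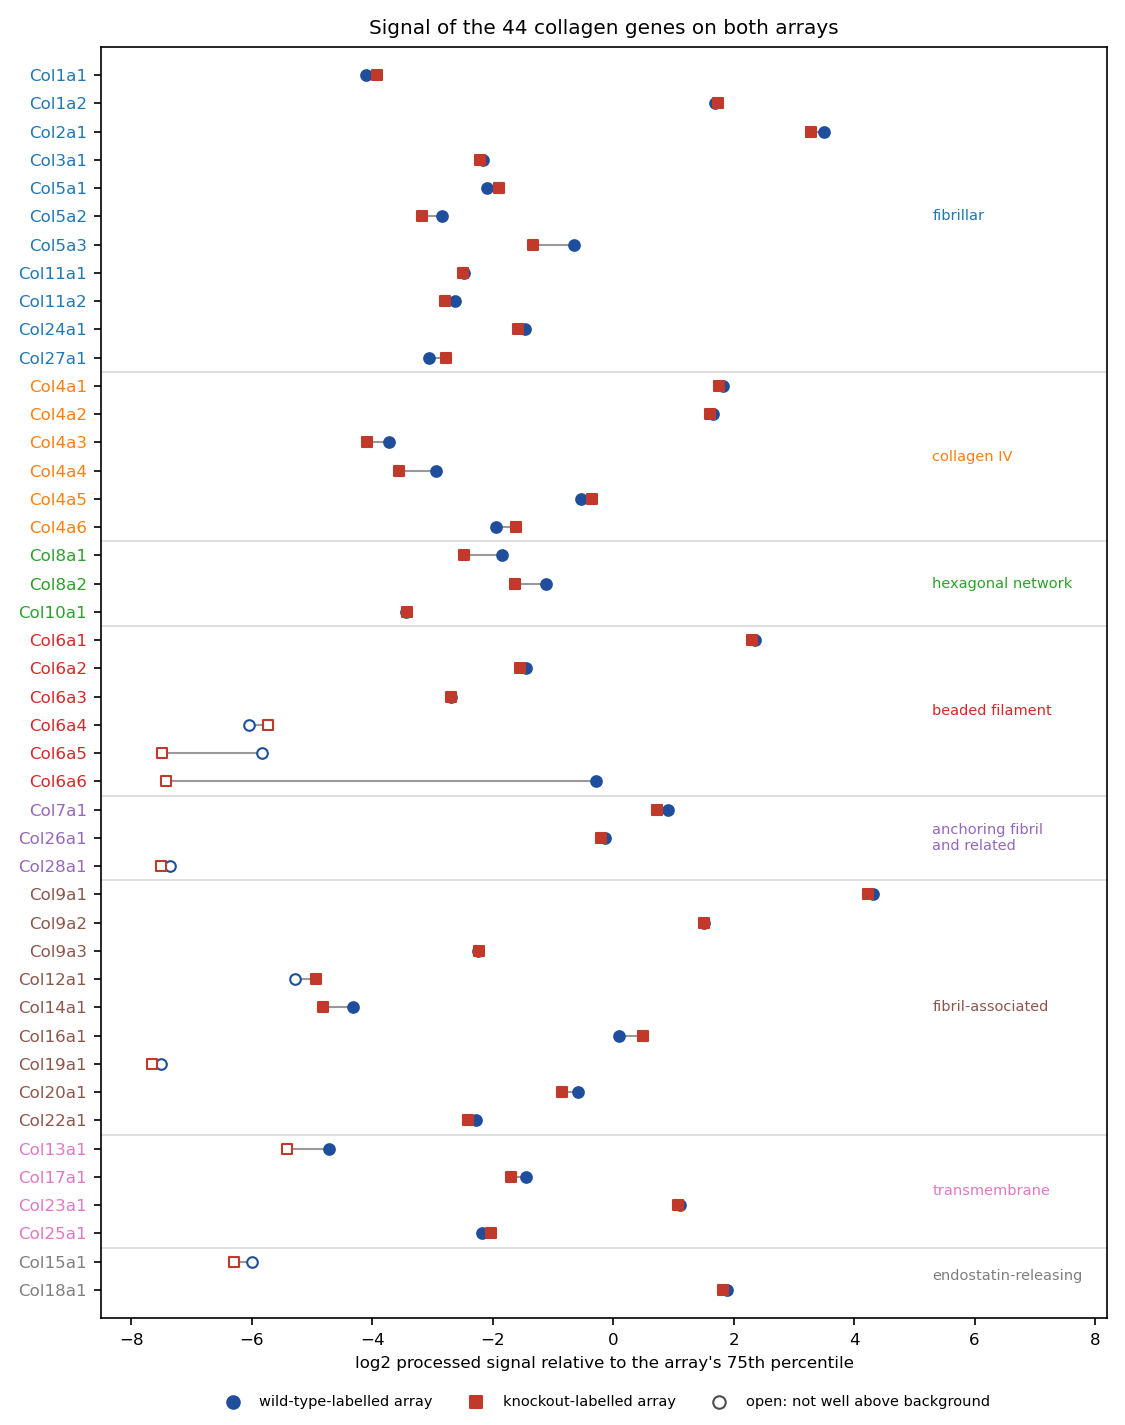
Log2 processed signal, relative to the 75th percentile of each array, for each of the 44 collagen genes, by class, with circles for the wild-type-labelled and squares for the knockout-labelled array and open symbols where the probe was not well above background. The symbols of most genes nearly coincide, while those of Col6a6 lie at -0.29 and -7.42; positions of different genes cannot be compared, since each is a different probe.

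The error of a difference can be put in 2 ways, both within an array and neither covering animals. Repeated spots of the same probe gave a technical SD of the difference that grew as the probe got dimmer, with 0.05 for log2 signals of at least 0, 0.09 between -2 and 0, 0.19 between -4 and -2, and 0.30 under -4. The scanner software's own error of each signal, carried to the log2 difference, had a median of 0.21 over the 36 collagens. Past 2 times this scanner error, a limit chosen after the data were seen, 4 of 36 collagens (11.1%) were lower, namely Col5a3, Col8a1, Col4a4 and Col8a2, against 2.94% of all genes measured on both arrays, and none was higher, against 2.9%. Those 4 genes were all less than 2-fold apart. After normexp background correction only Col5a3 passed, against 1.61% of all genes. That count sets differences shrunk by the normexp offset against the scanner error of the uncorrected signals. Fewer genes pass by construction, so it is no independent check of the 4.

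**Figure D2:**
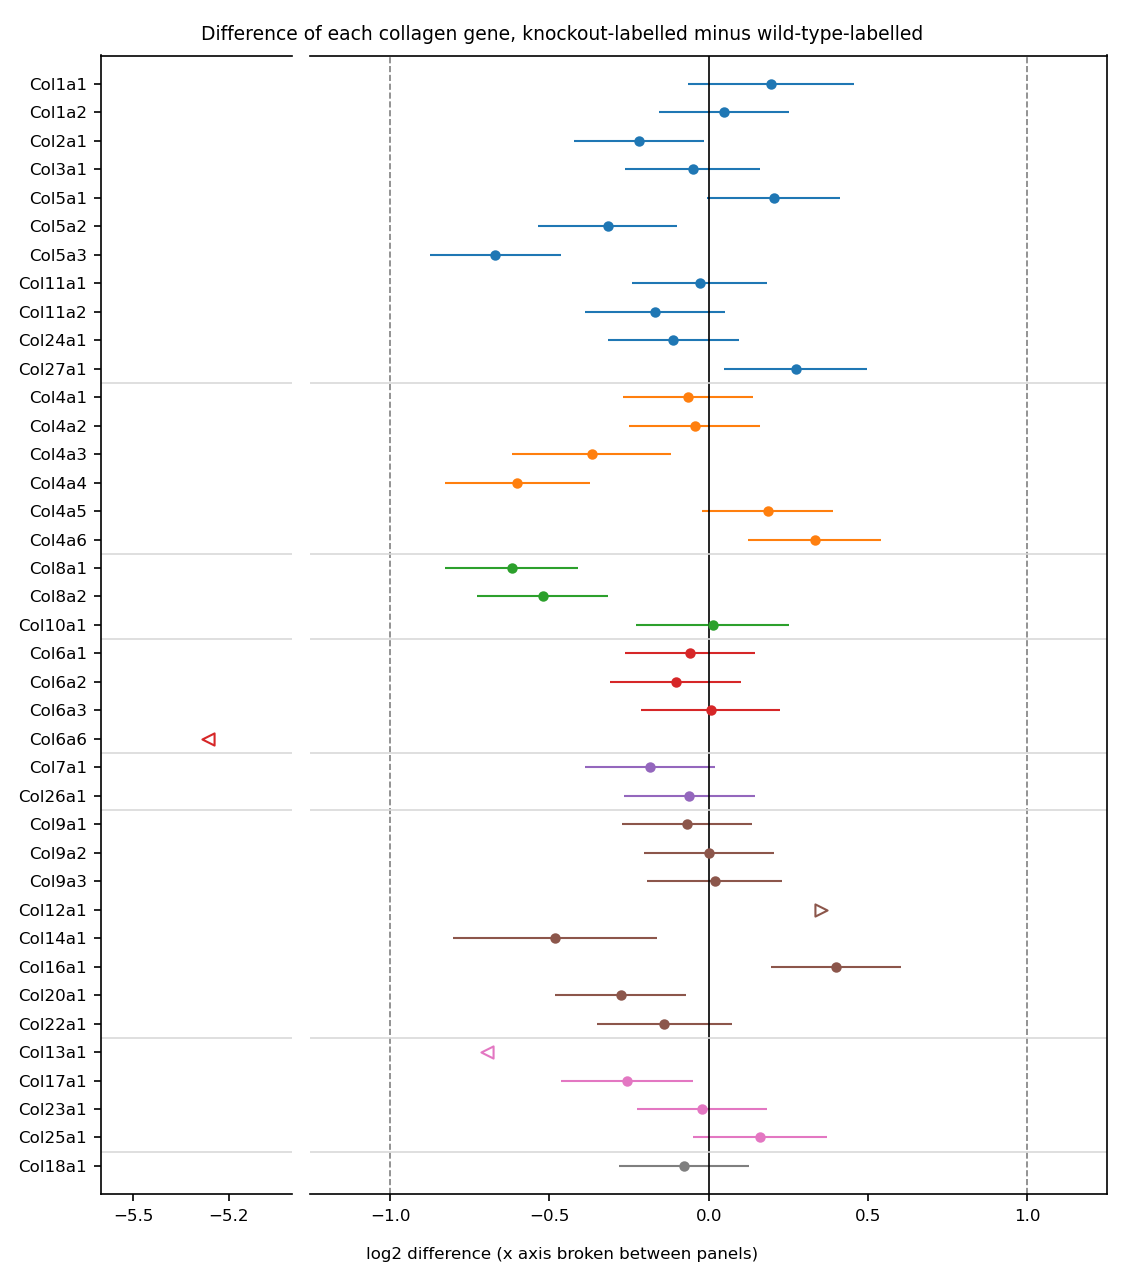
Log2 difference (knockout-labelled minus wild-type-labelled) of the 39 collagen genes above background on at least 1 array, coloured by class as ordered from fibrillar to endostatin-releasing. Bars are 1 scanner error either way, open triangles are genes above background on 1 array only, and dashed lines mark 2-fold. Col6a6 lies alone at a bound of -5.27, and every other gene lies between -0.70 and 0.40.

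Promoter windows of 5 collagens follow. The first 3 are shown because they belong to the neighbouring genes Col6a6, Col6a5 and Col6a4, of which the first gave the one large difference, and a further pair because Col8a1 and Col8a2 were lower together. Each holds the 250 bases before the RefSeq start of the gene, 5′ to 3′ on the gene's strand, in build GRCm38.p6. Capitals mark the GC box GGGCGG and the CCAAT box CCAAT on either strand (CCGCCC and ATTGG on the other).
Col6a6 (chr9:105828086-105828335, minus strand): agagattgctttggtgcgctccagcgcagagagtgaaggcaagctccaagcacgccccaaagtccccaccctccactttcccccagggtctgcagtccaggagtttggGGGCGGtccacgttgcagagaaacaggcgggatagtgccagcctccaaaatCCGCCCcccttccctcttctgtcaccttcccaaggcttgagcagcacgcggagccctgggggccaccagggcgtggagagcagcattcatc
Col6a5 (chr9:105960644-105960893, minus strand): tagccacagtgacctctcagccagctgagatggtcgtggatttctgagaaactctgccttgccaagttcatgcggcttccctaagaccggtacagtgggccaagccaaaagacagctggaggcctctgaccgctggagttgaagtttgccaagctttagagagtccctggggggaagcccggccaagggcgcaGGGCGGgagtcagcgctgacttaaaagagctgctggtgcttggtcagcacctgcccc
Col6a4 (chr9:106096692-106096941, minus strand): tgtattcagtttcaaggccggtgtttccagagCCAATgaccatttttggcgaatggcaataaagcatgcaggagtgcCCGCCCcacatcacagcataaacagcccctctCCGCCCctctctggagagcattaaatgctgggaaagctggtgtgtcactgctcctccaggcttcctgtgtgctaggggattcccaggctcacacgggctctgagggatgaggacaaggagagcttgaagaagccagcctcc
Col8a1 (chr16:57754738-57754987, minus strand): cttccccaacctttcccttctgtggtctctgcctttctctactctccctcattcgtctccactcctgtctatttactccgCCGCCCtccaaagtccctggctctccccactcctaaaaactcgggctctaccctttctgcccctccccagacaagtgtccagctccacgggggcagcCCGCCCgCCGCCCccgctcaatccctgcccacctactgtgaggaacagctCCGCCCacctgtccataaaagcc
Col8a2 (chr4:126286544-126286793, plus strand): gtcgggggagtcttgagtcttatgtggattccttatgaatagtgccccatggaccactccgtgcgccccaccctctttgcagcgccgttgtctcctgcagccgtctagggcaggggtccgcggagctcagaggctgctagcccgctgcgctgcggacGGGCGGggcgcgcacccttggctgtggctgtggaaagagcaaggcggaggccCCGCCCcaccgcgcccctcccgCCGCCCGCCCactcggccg

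All 5 windows hold at least 1 GC box. Of the 38 windows that RefSeq gives for 35 of the 44 collagen genes, 22 (57.9%) held one, against 32.7% of all 32851 windows of this length. Median GC content was 59% in the collagen windows and 52.4% in all windows, and its part in the share of GC boxes was not tested. The Col8a1 window has 4 matches to it and the Col8a2 window 4, of which a pair overlap. The CCAAT box was found in 13 collagen windows (34.2%), against 33.8% of all. TAATCC, the core recognised by the photoreceptor factor Crx and its relative Otx2, was searched on both strands (GGATTA) and was in 0 of the 38 collagen windows and in 6.25% of all windows. The TATA box, TATAAA or on the other strand TTTATA, was in 5 collagen windows (13.2%), against 12.4%. A match is only a match of letters, and its absence says nothing about a factor.

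Collagen VI forms beaded filaments around cells, from an alpha1 and an alpha2 chain together with a longer chain that can be alpha3 or one of the alpha4, alpha5 and alpha6 chains. Col6a6, which encodes the alpha6 chain, had a processed signal of 469 on the wild-type-labelled and 3.23 on the knockout-labelled array. On the log2 scale these are -0.29 and -7.42. The spot was well above background on the first array only, so its difference is a bound. It takes the lowest probe called well above background on the knockout-labelled array (log2 signal -5.56) in place of the dim spot. By this rule the signal was at least 38.5-fold lower on that array. As measured, the difference was -7.13 with a scanner error of 1.45, and the bound takes no account of that error. The bound was the lowest difference among the 15926 named genes above background on at least 1 array. The spot carried no outlier flag on either array, and its raw median brightness was 449 over a local background of 42 in the wild-type-labelled sample and 44 over 36 on the knockout-labelled array.

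The large difference rests on 1 spot per array of 1 probe, A_55_P2092164, drawn from transcript NM_001102607. The other Col6a6 probe, A_51_P105847, drawn from NM_172927, was not well above background on either array, with processed signals of 14.2 and 8.19, and gives no difference. With the mean over both probes the bound was -2.75. After normexp background correction the value, taken by the same rule for a gene above background on 1 array only, was -2.78 (6.89-fold). Which parts of the gene these probes cover is not known here.

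Of the genes beside Col6a6 on chromosome 9, those measured on both arrays and named here differed by at most 0.13 in size. Col6a5 and Col6a4, the next protein-coding genes on one side, encode the alpha5 and alpha4 chains and were well above background on neither array in either of their probes. On the other side Pik3r4, a subunit of a phosphoinositide kinase complex, differed by -0.10, and the calcium pump gene Atp2c1 by -0.11. The kinase gene Nek11, farther on, was above background for the wild-type label only, with a bound of -0.92, which leaves its full size unknown. Beyond Col6a4, Glyctk differed by -0.05, Wdr82 by 0.0049, Ppm1m by -0.13 and Twf2 by -0.02.

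The chains of the common form of collagen VI were level. Col6a1 measured 2.36 on the wild-type-labelled and 2.30 on the knockout-labelled array, a difference of -0.06. Col6a2, next to it on chromosome 10, measured -1.45 and -1.55, and Col6a3 measured -2.69 on both. All 3 differences were within 1 scanner error of 0.

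**Figure D3:**
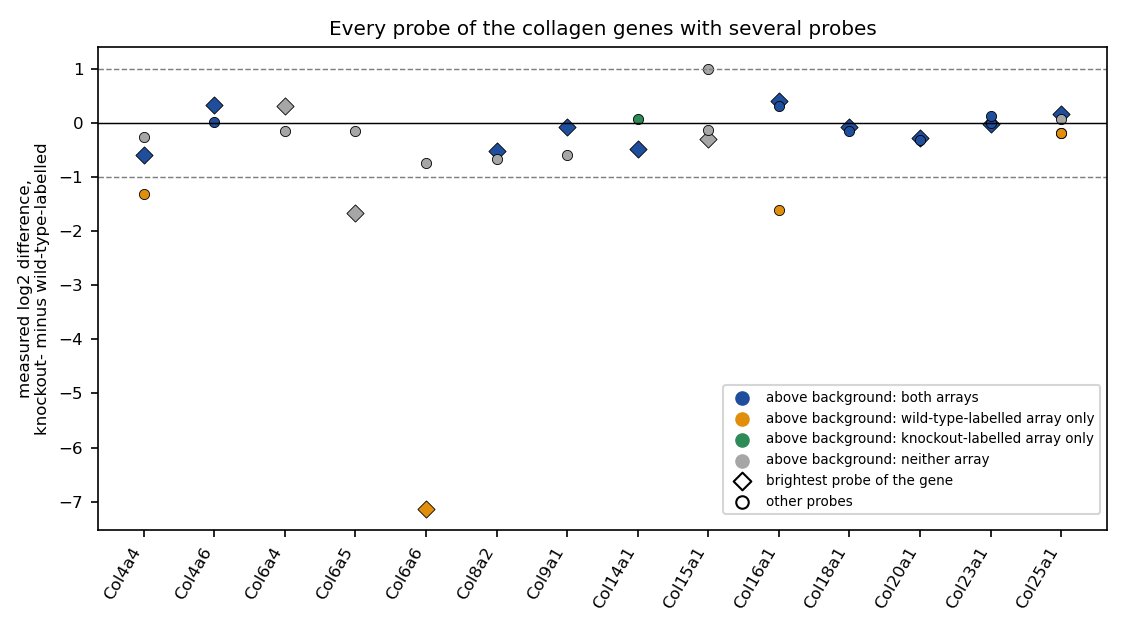
Measured log2 difference (knockout-labelled minus wild-type-labelled) of every probe of the 14 collagen genes with several probes; diamonds are the brightest probe of a gene, which stands for it elsewhere, circles are the other probes, and colour gives on which array the probe was well above background. The bright Col6a6 probe lies at -7.13 as measured, its dim probe at -0.75, and the 3 probes of Col16a1 lie on both sides of 0.

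Fibrillar collagens, the fibre formers, were all 11 measured on both arrays, 7 lower and 4 higher, with a median of -0.05 and none 2-fold apart. Over all genes measured on both arrays, 58.1% were lower. Col2a1, the main collagen of vitreous and cartilage, measured 3.50 on the wild-type-labelled and 3.28 on the knockout-labelled array. Its change of -0.22 is over 4 technical SDs of repeated spots but only just over 1 scanner error. Col11a1 and Col11a2, whose chains join that of Col2a1 in collagen XI, were at -0.03 and -0.17. Of the collagen I chains of skin, sclera and bone, Col1a1 was at 0.20 and Col1a2 at 0.05. Col3a1, the fibril former of vessel walls and soft tissue, was at -0.05. None of these 6 genes passed 2 times its scanner error.

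Collagen V, which starts fibres and sets their width, had 1 chain past 2 scanner errors. Col5a3 measured -0.66 on the wild-type-labelled and -1.33 on the knockout-labelled array, 1.59-fold lower and the lowest of the 36. Col5a2 measured -2.85 and -3.17, a difference of -0.32 within 2 scanner errors. Col5a1 measured -2.10 and -1.89, a difference of 0.20 within 1. The chains thus spanned 0.87 on the log2 scale, over a largest scanner error among them of 0.22. Of the remaining fibrillar genes, Col24a1 was at -0.11 and Col27a1 at 0.27, and both lay within 2 scanner errors of 0.

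Collagen IV, the basement membrane mesh, differed little in its ubiquitous chains, and of the other chains only Col4a4 passed 2 scanner errors. Col4a1, spotted 10 times on each array, measured 1.82 on the wild-type-labelled and 1.76 on the knockout-labelled array. Its 10 spots gave a difference of -0.07 ± 0.04 (SD over spots, n = 10), lower in 10 of 10, and those spots are technical repeats of 1 RNA sample per array. Col4a2, whose chain pairs with that of Col4a1, measured 1.66 and 1.62. These neighbours lie head to head on chromosome 8, with RefSeq starts 21 bases apart, and their differences lay 0.02 apart. Both differences are far below 2-fold.

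The alpha3 and alpha4 chains join alpha5 in the basement membranes of kidney and inner ear. Col4a3 measured -3.72 on the wild-type-labelled and -4.09 on the knockout-labelled array, a difference of -0.37 that is within 2 scanner errors. Col4a4, its neighbour on chromosome 1, measured -2.95 and -3.55, 1.52-fold lower and past 2 scanner errors. A dimmer Col4a4 probe, above background on the wild-type-labelled array only, was at least 1.78-fold lower, and the remaining one was above background on neither. Both genes are dim, and normexp brought Col4a3 to -0.09 and Col4a4 to -0.28.

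The remaining pair of collagen IV genes had values above 0. Col4a5 measured -0.53 on the wild-type-labelled and -0.35 on the knockout-labelled array, a difference of 0.18. Col4a6, its neighbour on chromosome X, measured -1.94 and -1.60, a difference of 0.33, but its dimmer probe gave 0.01. Across alpha3, alpha4 and alpha5, which build 1 network, the differences spanned 0.79. Neither gene of the pair passed 2 times its scanner error.

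Collagen VIII, a short-chain network of Descemet's membrane and of vessel walls, was lower in both of its chains. Col8a1 measured -1.85 on the wild-type-labelled and -2.47 on the knockout-labelled array, 1.54-fold lower. Col8a2 measured -1.12 and -1.64, 1.43-fold lower, and its dim probe was above background on neither array. The genes lie on chromosomes 16 and 4. Over the 6 alternatives that recompute single genes, values ran from -0.62 to -0.41 for Col8a1 and from -0.59 to -0.37 for Col8a2. The authors' table, the same intensities times a constant per array, could not change either value. The mean over probes could not change that of Col8a1, which has 1 probe, and median centring shifts all genes alike. Col10a1, the related collagen of growth cartilage, differed by 0.01.

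Fibril-associated collagens sit on the surface of fibres, and 7 of 9 were measured on both arrays with a median of -0.07. The collagen IX genes, whose product coats the fibrils of vitreous and cartilage, were level. Col9a1 measured 4.31 on the wild-type-labelled and 4.24 on the knockout-labelled array. Col9a2 measured 1.51 on both, and Col9a3 measured -2.25 and -2.23. The differences of these chains spanned 0.09, less than 1 scanner error.

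Col16a1 gave the highest value of all collagens but not in every probe. Its brightest probe measured 0.10 on the wild-type-labelled and 0.50 on the knockout-labelled array, a difference of 0.40, and another probe gave 0.30. The third, above background on the wild-type-labelled array only, was at least 2.32-fold lower, and the mean over the 3 probes was -0.30. The direction for this gene, whose product lies near cells in skin and cartilage, therefore depends on the probe.

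Other fibril-associated genes were lower or dim. Col20a1 measured -0.58 on the wild-type-labelled and -0.86 on the knockout-labelled array, and both of its probes were lower, by 0.28 and 0.32. Col22a1, of tissue junctions, was at -0.14. Col14a1, which binds fibrils of skin and tendon, was at -0.48 at a signal where the scanner error is 0.32. Its other probe, above background on the knockout-labelled array only, measured 1.06-fold higher, within 1 scanner error. Col12a1, a close relative of Col14a1, was also above background on the knockout-labelled array only. It measured 1.28-fold higher, within 1 scanner error. Col19a1 was above background on neither array.

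Transmembrane collagens, which anchor cells and shed their outer part, had no member 2-fold apart. Col23a1 measured 1.10 on the wild-type-labelled and 1.08 on the knockout-labelled array, and its other probes gave 0.00087 and 0.13. Col17a1, known from the attachment of epithelia and also made by Müller glia and photoreceptors, measured -1.44 and -1.70, a difference of -0.26. Col25a1, a collagen of neurons, was at 0.16, with -0.19 in the next brightest of its 4 probes. Col13a1, found at the neuromuscular junction, was above background on the wild-type-labelled array only. It measured 1.62-fold lower, within 2 scanner errors, or -0.11 after normexp. Probes of Col25a1 thus fell on both sides of 0.

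Of the genes left, Col18a1, a basement membrane collagen that releases endostatin and is needed for regression of the hyaloid vessels, measured 1.90 on the wild-type-labelled and 1.82 on the knockout-labelled array, with -0.08 in this probe and -0.15 in its other one. Col7a1, the anchoring fibril collagen, measured 0.91 and 0.72, a difference of -0.19. Col26a1 was at -0.06. Col15a1, the relative of Col18a1, and Col28a1 were above background on neither array, which with Col6a4, Col6a5 and Col19a1 makes 5 of 44 (11.4%), against 25.5% of all named genes.

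**Figure D4:**
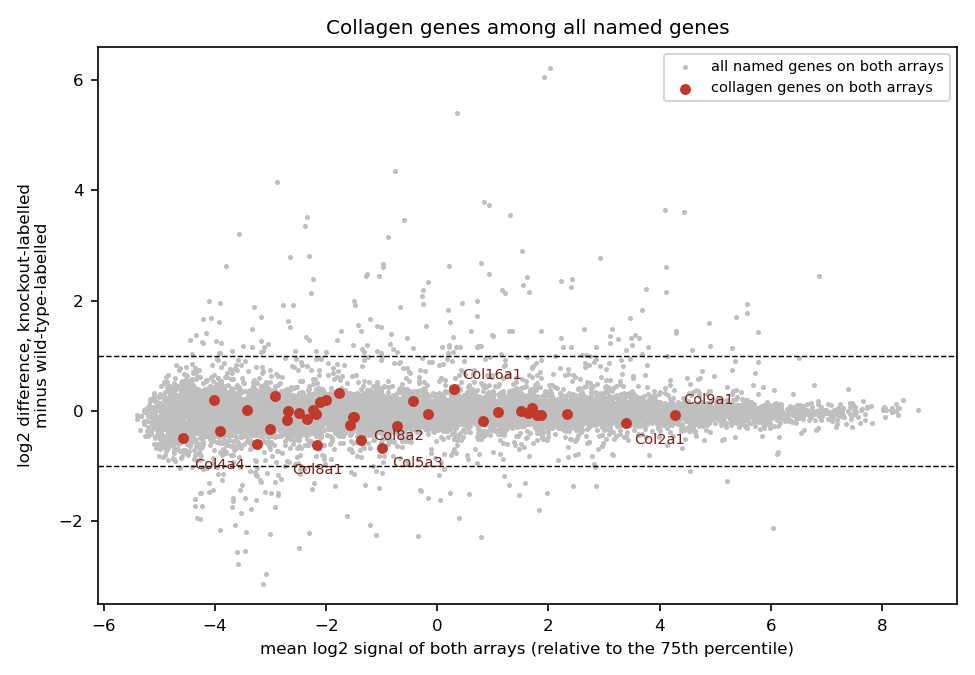
Log2 difference (knockout-labelled minus wild-type-labelled) against mean log2 signal for all 15247 named genes measured on both arrays (grey) and the 36 collagen genes among them (red), with dashed lines at 2-fold. All red points lie between the lines, from -0.67 for Col5a3 to 0.40 for Col16a1; Col6a6 is not drawn because it was above background on 1 array only.

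Genes that make, process and bind collagen had list medians between -0.09 and 0.05. Of 23 genes of collagen synthesis and crosslinking, 22 were measured on both arrays, with a median of 0.05. None was at least 2-fold higher, against 1.05% of all genes measured on both arrays, and 1 was at least 2-fold lower, against 0.617%. That gene was P3h2, a prolyl 3-hydroxylase that modifies collagen IV among others. It measured -2.73 on the wild-type-labelled and -3.76 on the knockout-labelled array, 2.04-fold lower, but -0.41 after normexp, which ends the call. The related P3h3 was the highest at 0.46, higher past 2 scanner errors, and at 0.41 after normexp. The collagen chaperone Serpinh1 was at 0.14, the prolyl 4-hydroxylase subunits P4ha1 at 0.03 and P4ha3 at -0.59, which with P3h2 was lower past 2 scanner errors, and the crosslinking enzyme Lox was above background on neither array. Of all genes measured on both arrays, 2.94% were lower and 2.9% higher past 2 scanner errors.

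Of 8 procollagen processing genes, 7 were measured on both arrays with a median of 0.05, from Adamts2, which removes the amino-terminal propeptide, at -0.23 to Pcolce2 at 0.32. Of 10 collagen receptors, 7 were so measured with a median of -0.09, from the integrin subunits Itga1 at -0.17 to Itga10 at 0.30. Neither list had a member 2-fold apart. Among 15 collagen-degrading proteases and their inhibitors the median was -0.04. There the protease cathepsin K gene Ctsk was the lowest at -0.60 and the inhibitor Timp4 the highest at 0.83, or 0.12 after normexp.

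Partners of collagen in the matrix were covered by 2 further lists. Of 20 laminins and other basement membrane genes, 19 were measured on both arrays, with a median of -0.06. Of these 19, 15 were lower, against 58.1% of all genes measured on both arrays, and none passed 2 scanner errors. The nidogen gene Nid2, which links laminin to collagen IV, was the lowest at -0.27. Sparc, a collagen-binding glycoprotein, was the highest at 0.18, while its other probes gave -0.10 and -0.08. Of 16 proteoglycans and fibril partners, 10 were measured on both arrays with a median of -0.13, from Comp at -0.67 to Tnxb at 0.35. No gene of either list was 2-fold apart.

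Markers of the cell types and neighbouring tissues that make collagen were set beside these values, and their part in the collagen differences was not tested. Signals below are summed over a list's members measured on both arrays, in units of the array's 75th percentile, so that a bright probe weighs more than a dim one. Fibroblast, scleral and meningeal markers, 11 of 15 measured on both arrays, summed to 4.85 on the wild-type-labelled and 4.79 on the knockout-labelled array, with Lum, Dpt and Twist2 above background on neither. This list ran from Slc22a6 at -0.33 to Fbln1 at 0.40, with a median of -0.04. All 12 endothelial markers were measured, and summed to 37.1 and 35.7, from the angiopoietin receptor Tek at -0.29 to Eng at 0.03. Pericyte and smooth muscle markers, 9 of 11 with Des above background on neither array, summed to 24.8 and 16.5. Vtn, which photoreceptors also express, was the lowest at -0.79. Without it the sums were 6.36 and 5.84, and the potassium channel gene Kcnj8 was the highest at 0.33, with a list median of -0.11.

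Markers of glia and of inner retinal neurons had medians near 0, and rod markers a lower one. Müller glia markers summed to 309.6 on both arrays, with a median of 0.06, from Crym at -0.15 to the water channel Aqp4 at 0.14. Of 6 astrocyte markers 5 were measured, from Aldh1l1 at -0.10 to S100b at -0.02, summing to 119.9 and 116, with Pax2 above background on neither array. Bipolar, amacrine and ganglion cell markers had a median of -0.0013 and sums of 324 and 318.5, from Pax6 at -0.10 to Trpm1 at 0.08. Rod markers had a median of -0.27, with 12 of 13 lower, against 58.1% of all genes measured on both arrays. Past 2 scanner errors, 3 of the 13 were lower, against 2.94% of all such genes. The rod markers summed to 1350 and 1109, from the transducin gene Gnat1 at -2.13, the only one 2-fold apart, to Rom1 at 0.08. At least 2-fold lower were 0.617% of all genes measured on both arrays.

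Of the tissues next to the retina, the lens gave the markers with the largest median difference among the lists, and the part of these tissues in the collagen values was not tested either. Lens markers, 14 of 16 measured on both arrays and the other two on the knockout-labelled array only, summed to 7.30 on the wild-type-labelled and 31.9 on the knockout-labelled array. At least 2-fold higher were 11 of the 16: Crybb2 (2.80), Crygs (2.64), Crygb (2.44), Crygc (2.35), Cryba1 (2.35), Cryaa (2.25), Cryba2 (2.15), Crybb1 (1.55), Crybb3 (1.22) and Cryba4 (1.21) on the log2 scale, and the water channel Mip, at least 5.79-fold. The share over all genes above background on at least 1 array was 1.58%. After normexp Crybb3 (0.99) and Cryba4 (0.96) were just under 2-fold, Mip was 2.02-fold, Cryba2 2.43-fold and Crybb2 2.89-fold higher, and the list median was 1.26. Near-identical gamma crystallins can share signal. Hsf4 was the lowest lens marker at -0.17. The lens capsule is rich in collagen IV. Of the 6 collagen IV genes 4 were below 0, namely Col4a1 (-0.07), Col4a2 (-0.04), Col4a3 (-0.37) and Col4a4 (-0.60). The other 2, Col4a5 (0.18) and Col4a6 (0.33), were above 0. Pigment epithelium and choroid markers, 13 of 14 with Lrat above background on neither array, summed to 47.1 and 39.7, from the melanosome gene Pmel at -0.81 to Best1 at 0.15, with a median of -0.33. Past 2 scanner errors, 4 of these 13 were lower and 0 higher, against 2.94% and 2.9% of all genes measured on both arrays. Ciliary body and margin markers, 11 of 12 with Otx1 above background on neither, summed to 7.72 and 7.12, from Wls at -0.45 to Wfdc1 at 0.15, with a median of -0.12. Of these 11, 2 were lower and 0 higher past 2 scanner errors.

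**Figure D5:**
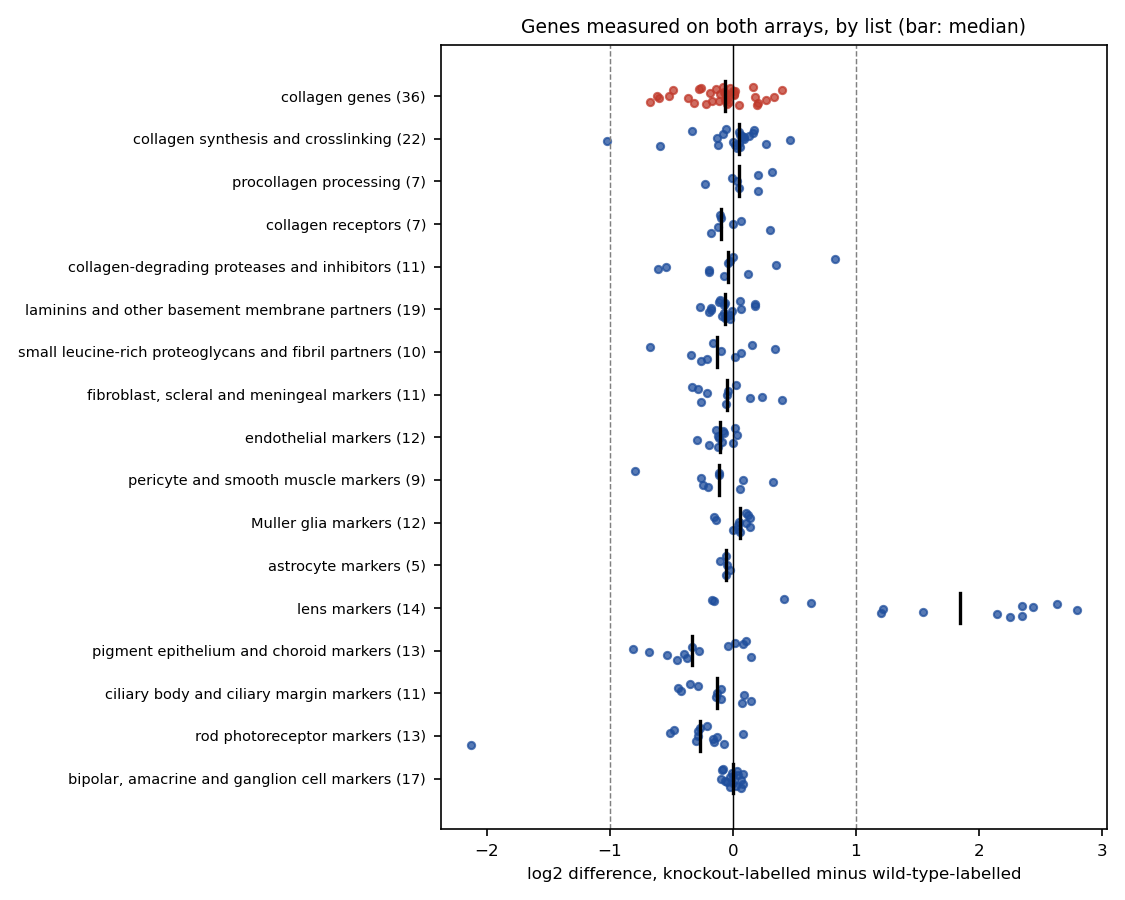
Log2 difference (knockout-labelled minus wild-type-labelled) of each gene measured on both arrays, for the collagen genes (red) and 16 related gene lists (blue), with the number of genes in brackets, a black bar at each median and dashed lines at 2-fold. Collagen genes centre on -0.06, and the lens list, with a median of 1.85, is the only list centred outside the dashed lines.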

How the data were processed

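The authors deposited linear intensity values as written by Agilent Feature Extraction 11.5.1.1 (protocol GE1_1105_Oct12, array design on build mm9), per the file headers. Total RNA was amplified and Cy3-labelled, per the labels' protocols. Of 59305 non-control spots none was saturated, and 60.3% and 60.9% were well above background on the wild-type-labelled and knockout-labelled array. The number of arrays, 1 per group, limits the precision, and no test across samples exists.

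Values were log2 processed signal minus each array's 75th percentile. The 119 and 163 spots that the scanner marks as outliers were dropped, repeated spots averaged, and the brightest probe stood for a gene. Of 55677 probes, 28330 were named by unversioned accession in the RefSeq table of GRCm38.p6, which served for names and gene order; promoter windows carry their own GRCm38.p6 coordinates, and none was set against mm9. A probe counts as well above background when all its spots are. A gene above background on 1 array only is set against its own signal on the other array or the dimmest probe above background there, whichever is higher. With the dimmest probe, as for Col6a6, the value is a bound that rests on the scanner's call and leaves out the scanner error. With its own signal, as for Col12a1 and Col13a1, the value is the measured difference and not a minimum. Genes at least 2-fold apart are counted as different.

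Members and lists were chosen with earlier results of these data known, and the count past 2 times the scanner error was chosen after seeing the data. Named are Samd7, every collagen, and from each related list the highest and lowest member measured on both arrays and all members 2-fold apart; Serpinh1, P4ha1, P4ha3 and the genes beside Col6a6 are further examples chosen after their values were seen. Dcn, Lum, Pdgfra, Optc and Trpm1 are each in 2 lists. Alternatives used limma 3.58.1 in R 4.3.3 for quantile, cyclic loess and normexp (offset 50) normalization; the counting step was tested on simulated data. The authors' deposited value table holds the same intensity values times a constant per array (log2 1.31 and 1.37), whose origin the sources used here do not give.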

Additional observations from a re-analysis of the deposited data

How the results depend on the processing

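No alternative gave a collagen at least 2-fold higher. The single collagen at least 2-fold lower, Col6a6, was so under quantile normalization, median centring, cyclic loess, normexp, the authors' table, the mean over probes and a 4-fold threshold. The count was 0 with genes above background on both arrays only, by construction, since Col6a6 is a bound. It was 2 with no filter on dim probes, where Col6a5 joined, and 5 at 1.5-fold, where Col5a3, Col8a1, Col4a4 and Col13a1 joined. At 1.5-fold 0 of the 39 collagens were higher. Of the 15926 genes above background on at least 1 array, 510 were lower and 471 higher by that threshold. The count past 2 times the scanner error, recomputed as an alternative added after seeing the data, was 4 lower under quantile, median, loess and the authors' scaling and 1 under normexp, and median centring put 1 gene, Col16a1, past it as higher. The scanner error itself was not recomputed under any of these. Over all genes, normexp moved the counts from 251 higher and 218 lower to 125 and 45, and no filter to 579 and 671. The median of the collagens stayed within the technical SD of its main value under every alternative run for it. Of 233 recomputed collagen differences, 21 moved by over the technical SD, 15 of them under normexp, whose offset shrinks dim differences by construction, and 6 with the mean over probes. The sign changed in 9 values of 7 genes less than 2-fold apart (Col1a2, Col9a2, Col11a1, Col16a1, Col23a1, Col24a1 and Col25a1). For Col16a1 and Col25a1 it changed only with the mean over probes, where dimmer probes enter. For Col11a1 it changed only under median centring, which shifts all genes alike. The cause in the others was not tested. Among Samd7 and named related genes, 28 of 258 values moved so, and the sign changed in Best1, S100b, Sparc and Trpm1. Of the 16 related lists, the medians of lens (1.26) and pigment epithelium markers (-0.25) moved so under normexp, and only that of bipolar, amacrine and ganglion cell markers changed sign. Depth is limited by signal over background: 5 collagens give no difference and 3 were above background on 1 array only. Among the latter the value of Col6a6 is a bound. No paired analysis was possible because either label stands on a single array.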
